A study of Homo sapiens with 12 samples.

Results

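RX-5902 is a small molecule described as acting on the phosphorylated form of DDX5, an RNA helicase of transcription and splicing. Its early effect on RNA levels was read in MOLM-14 cells, an established line of human acute myeloid leukemia that carries a KMT2A fusion and an activated FLT3 receptor. One group was kept for 6 hours in 100 nM RX-5902 and the other for 6 hours in 0.1% DMSO, the solvent. Each group had 3 libraries, called biological replicates in the labels. These 6 libraries, chosen by treatment and time in the labels, are part of a series of 12. The other 6 libraries come from the same line 96 hours after infection with lentivirus, with 3 for a control shRNA (shControl) and 3 for an shRNA against DDX5 (shDDX5), and the experiments share no library. The drug experiment has 1 cell line, 1 compound, 1 dose and 1 time, and no inactive analog.

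As background, microtubules are polymers of alpha- and beta-tubulin, and cells adjust tubulin RNA to the pool of free tubulin: when that pool grows, the factor TTC5 recognises the first amino acids of newly made tubulin on the ribosome and the RNA is degraded. MYC is a transcription factor that drives ribosome assembly, nucleotide synthesis and metabolism in leukemia cells. NF-kB and AP-1 are transcription factors of inflammatory and stress signalling, and AP-1 includes the JUN protein, a target of the kinase JNK.

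Total counts per library lay between 20264250 and 20367575. The share of counts from mitochondrial DNA was 5.19 to 6.20%. Genes annotated as ribosomal RNA took 0.469 to 0.492% in DMSO and 0.627 to 0.659% with RX-5902, and genes with at least 10 counts numbered 13648 to 13768 and 14032 to 14070, so both measures separated the groups, and their part in the results was not tested. Levels are given as CPM, the library-scaled count with TMM factors, and changes as log2 fold changes of RX-5902 over DMSO with their standard errors (SE). A gene is said to have risen or fallen where edgeR's quasi-likelihood test gave an adjusted p under 0.05. The values are shares of each library's RNA with no added standard, so a loss of cells of one kind and less RNA per cell cannot be told apart.

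Of 13941 tested genes, 8943 (64.1%) changed after 6 hours, of which 4492 (32.2%) rose and 4451 (31.9%) fell. Most changes were small, and 62.6% of the called genes moved by less than 1.5-fold. A rise of at least 2-fold was found for 720 genes (5.16%) and a fall of at least 2-fold for 497 (3.57%), and 141 and 38 passed 4-fold. The lowest and highest libraries of the groups did not overlap for 9400 genes (67.4%). The median log2 fold change of all tested genes was 0.01, and its quartiles were -0.31 and 0.32. Against these shares a list of genes is described below by its counts and its median. The plot of change against level shows that the largest changes were at low levels, while MYC, TUBB and TUBA1B fell from high ones.

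**Figure D1:**
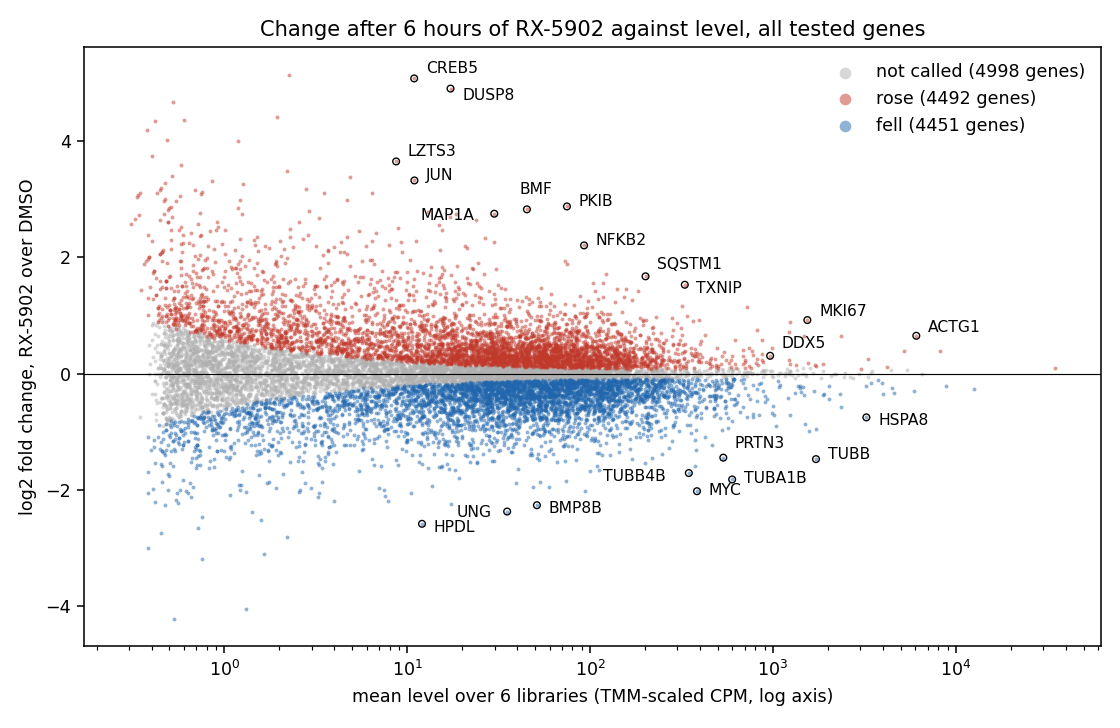
Each point is 1 of 13941 tested genes, with its mean level over 6 libraries (TMM-scaled CPM, log axis) and its log2 fold change of RX-5902 over DMSO; red genes rose, blue genes fell and grey genes were not called, and ringed genes are named. TMM scaling centres the changes near 0, so the 4492 rises and 4451 falls are of like number by construction, and MYC (-2.02) and TUBA1B (-1.82) stand below most genes of their level.

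Tubulin RNA fell. The alpha- and beta-tubulin genes together took 4480 to 4778 CPM in the DMSO libraries and 1650 to 1674 CPM in the RX-5902 libraries. Of 17 such genes, 9 passed the expression filter and were tested, and 7 fell, 1 rose and 1 was not called, with a median log2 fold change of -1.28. The median was -0.70 with no expression filter and -0.70 with DESeq2, which include rarer members, and -0.76 in 1 fit of all 12 libraries. The first 8 codons of the members the result turns on are shown because tubulin autoregulation reads the start of the protein. They are taken from GENCODE release 29 transcripts, 5′ to 3′ from the start codon, with the first 4 codons in capitals.
TUBA1A: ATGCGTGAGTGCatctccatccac
TUBA1B: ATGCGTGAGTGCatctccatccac
TUBA1C: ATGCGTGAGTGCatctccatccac
TUBA4A: ATGCGTGAATGCatctcagtccac
TUBB: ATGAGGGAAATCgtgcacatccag
TUBB4B: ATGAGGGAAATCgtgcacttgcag
TUBB6: ATGAGGGAGATCgtgcacatccag
TUBG1: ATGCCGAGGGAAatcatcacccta

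TUBB, a beta-tubulin gene (chr6:30717435-30725538, GRCh38), stood at 2549, 2548 and 2473 CPM in DMSO and at 918, 911 and 903 CPM with RX-5902. The groups lay far apart with little spread inside each, a 2.77-fold fall (log2 -1.47, SE 0.04, edgeR adjusted p = 1.11e-25). TUBA1B, an alpha-tubulin gene (chr12:49127782-49131397), was at 1030, 859 and 904 CPM against 264, 264 and 263 CPM. It was 3.53-fold lower, the largest fall of the 9 tested members. TUBB4B fell from 562, 520 and 510 CPM to 164, 168 and 154 CPM (log2 -1.71, SE 0.04). The other falls were those of TUBA1C (-1.38), TUBA4A (-1.28), TUBB6 (-0.80) and TUBB1 (-0.57). TUBB1 had at most 1.45 CPM in any library. The log2 fold change of TUBB1 had an edgeR adjusted p of 0.0338, of 0.0513, 0.0633 and 0.0677 without DMSO replicate 1, 2 or 3, and of 0.0529 and 0.147 without RX-5902 replicate 2 or 3, so the call rests on each of these libraries. TUBB1 shares 1180 exonic bases (35.5%) with ATP5F1E on the opposite strand, which had 7552 counts against its 143, so its value may include reads of ATP5F1E. On the opposite strand TUBB6 also shares 837 exonic bases with AFG3L2, which had 10875 counts against its 15850. TUBA4A shares 628 with STK16, which had 2669 counts against its 4285.

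TUBA1A went the other way, at 41.6, 41.4 and 41.6 CPM in DMSO and 72.8, 75 and 69.9 CPM with RX-5902. All 3 RX-5902 libraries lay above all 3 DMSO libraries (log2 0.80, SE 0.05, edgeR adjusted p = 6.37e-16). Its first 24 coding bases are the same as those of TUBA1B and TUBA1C, both of which fell. The 3 genes are near-identical copies, and TUBA1A also shares exonic bases with TUBA1C on the opposite strand, so the counting could have exchanged reads between them. TUBA3D stood near 1 CPM and was not called (log2 -0.26, 95% interval -0.75 to 0.24).

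Translated, the first 4 codons of the alpha-tubulins occur at the start of 9 of 19513 coding genes read from GENCODE, and those of the beta-tubulins at the start of 10. All of these genes are tubulins. Of the 5 tested genes with the alpha start 3 fell and 1 rose, and of the 4 with the beta start all 4 fell, the uncertain TUBB1 among them. These are the same 9 tested genes as above, so sorting them by their start adds no separate evidence. Among tubulins with another start, the gamma-tubulin gene TUBG1, of the centrosome, fell by 0.63 and the epsilon-tubulin gene TUBE1 by 0.59, while the delta-tubulin gene TUBD1 was at 0.09 and not called. Neither RNA decay nor free tubulin was measured, and a part of autoregulation in these changes was not tested.

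**Figure D2:**
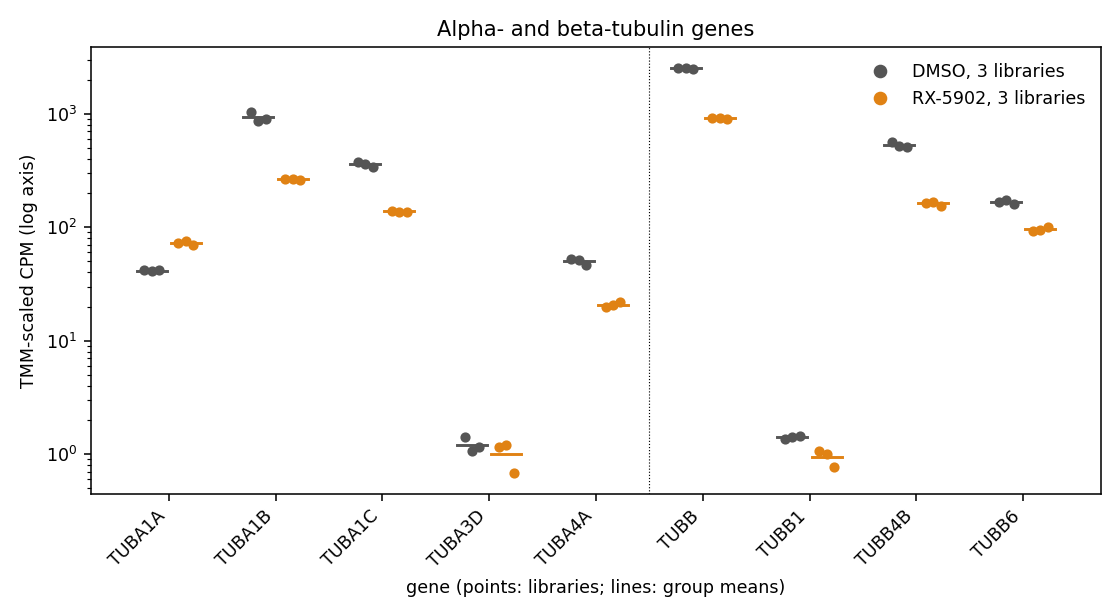
Levels of the 9 tested alpha- and beta-tubulin genes (TMM-scaled CPM, log axis) in 3 DMSO libraries (grey) and 3 RX-5902 libraries (orange), with group means as lines and the dotted line between alpha and beta genes. TUBB dropped from 2473 CPM or more to 918 CPM or less, TUBA1A moved upward, and the groups of TUBA3D overlap.

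Of 26 folding and autoregulation factors 18 fell (11 in 1 fit of all 12 libraries) and 1 rose, with a median of -0.30, among them the chaperonin subunits TCP1 (-0.58), CCT2 (-0.54) and CCT6A (-0.60) and the prefoldin subunit PFDN6 (-0.70). TTC5 itself, which binds the nascent tubulin start, fell by 0.59. Proteins that act on microtubules split, with 13 risen and 8 fallen of 31. MAP1A, which binds along microtubules, was at 8.29, 7.64 and 7.27 CPM in DMSO and at 52.2, 50.1 and 53.9 CPM with RX-5902. That 6.73-fold rise (log2 2.75, SE 0.07) had no counterpart in the tubulin-modifying gene TTLL12, which fell by 0.94. The microtubule plus-end protein gene CLIP1 (0.68) and the spindle factor gene TPX2 (0.52) rose.

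In the actin cytoskeleton list 17 of 31 rose, 6 fell and 8 were not called, with a median of 0.16. Among those that rose was ACTG1, a cytoplasmic actin, at 4728, 4838 and 4603 CPM in DMSO and 7154, 7525 and 7573 CPM with RX-5902 (log2 0.65, SE 0.04). The actin crosslinker FLNA rose by 0.64 and the myosin heavy chain MYH9 by 0.72, while the crosslinker gene ACTN1 fell by 0.51. Targets of the actin-regulated factors MRTF and SRF had 7 risen and 1 fallen of 12, with the focal adhesion genes VCL (0.42) and ZYX (0.30).

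CREB5 and DUSP8 led the rises of protein-coding genes whose mean level reached 5 CPM. CREB5, a transcription factor of the CREB family (chr7:28299321-28825894), was at 0.455, 0.607 and 0.802 CPM in DMSO and at 20.3, 21.9 and 21.5 CPM with RX-5902. From near absence in every DMSO library it was 33.8-fold higher (log2 5.08, SE 0.14, edgeR adjusted p = 8.83e-25). DUSP8, a phosphatase that inactivates JNK and p38 (chr11:1554051-1572271), went from 1.62, 0.961 and 0.752 CPM to 29.4, 34.6 and 36.1 CPM, a 29.9-fold rise. LZTS3, a leucine zipper protein, rose from 1.06, 1.52 and 1.253 CPM to 14.6, 16.7 and 17 CPM (log2 3.65, SE 0.13). Genes were ranked among those whose groups do not overlap.

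JUN, the AP-1 subunit (chr1:58776845-58784048), stood at 1.67, 2.17 and 2.11 CPM in DMSO and at 19.4, 21 and 19.3 CPM with RX-5902. The 10.0-fold rise was alike in all 3 treated libraries (log2 3.32, SE 0.11, edgeR adjusted p = 1.72e-22). CXCL10, a chemokine that attracts T cells, rose from 1.47, 1.31 and 1.2 CPM to 12.5, 10.1 and 12.0 CPM. PKIB, an inhibitor of the cAMP-dependent kinase PKA, went from 17, 16.6 and 20.1 CPM to 138, 130 and 126 CPM (log2 2.88, SE 0.06, edgeR adjusted p = 8.74e-28). PKIB was thus both among the largest rises and among the 5 with the smallest p. BMF, a BH3-only protein that binds survival proteins of the BCL2 family and is known to sit on motor complexes of the cytoskeleton (chr15:40087890-40108892), rose 7.09-fold, from 11.0, 11.1 and 11.3 CPM to 77.7, 77.2 and 82.3 CPM. IL4I1, a secreted amino acid oxidase, rose by 2.79 (SE 0.10), but it shares 336 exonic bases with NUP62 on the same strand, which had 19371 counts against its 1597, so its level is uncertain.

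Where the mean level reached 100 CPM, the largest rises were those of CYLD, SQSTM1, MOV10, NEAT1 and TXNIP. CYLD, which removes ubiquitin chains in NF-kB signalling, rose 3.28-fold, from 56.9, 56.8 and 58.0 CPM to 197, 185 and 181 CPM. SQSTM1, the autophagy receptor p62, went from 94.8, 97.1 and 95.7 CPM to 288, 313 and 316 CPM. The RNA helicase gene MOV10 rose by 1.56 and the nuclear long non-coding RNA NEAT1, a scaffold of paraspeckles, by 1.55. SQSTM1 shares 1582 exonic bases with MRNIP on the opposite strand, which had 1645 counts against its 24727.

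**Figure D3:**
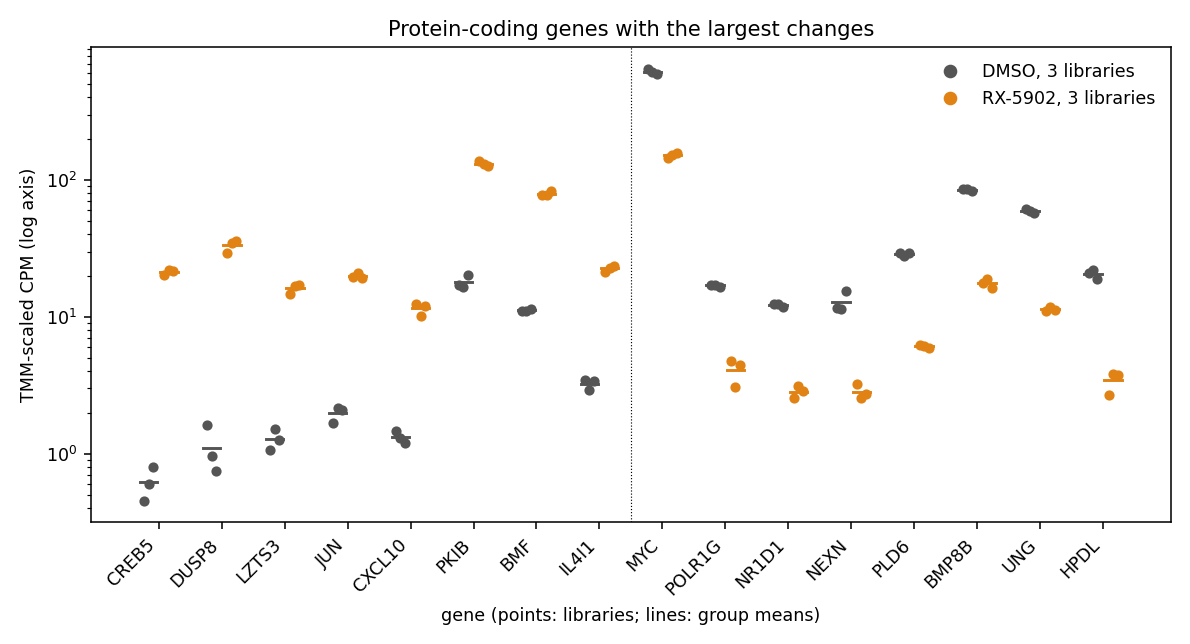
Levels of the 8 protein-coding genes that rose most and the 8 that fell most among those whose mean level reached 5 CPM and whose groups do not overlap, limits used to choose them (TMM-scaled CPM, log axis; points are libraries, lines are group means of 3 DMSO libraries in grey and 3 RX-5902 libraries in orange). CREB5 and DUSP8 start near 1 CPM, and MYC falls from above 590 CPM to below 159 CPM.

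In the stress-kinase list 10 of 15 rose and 1 fell, with 6 of the 10 at 2-fold or more, beside 32.2% risen over all genes. Besides DUSP8 and JUN, the phosphatase genes DUSP16 and DUSP10, which also act on JNK and p38, rose by 1.93 (SE 0.05) and 1.54 (SE 0.07). DUSP16 stood at 29.8, 31.2 and 29.1 CPM in DMSO and at 117, 114 and 114 CPM with RX-5902. Immediate early transcription factors had 22 risen and 5 fallen of 34, with a median of 0.52. BTG2, an antiproliferative factor, rose 6.24-fold, CSRNP1 by 1.74 and KLF6 by 1.47. The list did not move as one: FOS was at 8.09, 8.14 and 7.37 CPM in DMSO and 6.37, 6.76 and 7.67 CPM with RX-5902, groups that overlap (log2 -0.18, 95% interval -0.39 to 0.02, edgeR adjusted p = 0.128), and EGR1, an early gene of growth factor signalling, fell by 0.97. Genes of ERK feedback were mixed, with 8 risen and 6 fallen of 17, of which the feedback inhibitors SPRY1 (-1.68) and SPRY4 (-1.26) fell and PHLDA1 (1.66) rose.

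Genes of cAMP signalling and CREB had 18 risen and 8 fallen of 32, with a median of 0.22. Besides CREB5 and PKIB, the prostaglandin receptor gene PTGER4 rose from 2.02, 1.57 and 1.40 CPM to 9.55, 9.06 and 8.97 CPM, and the cAMP phosphodiesterase gene PDE4A by 1.03. Of the 32 genes 6 rose by at least 2-fold and 0 fell by as much.

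Inflammatory NF-kB targets rose in 21 of 25 cases and fell in 1, with a median of 0.90. NFKB2, the precursor of the p52 subunit (chr10:102394110-102402524), went from 32.7, 33.4 and 32.9 CPM to 147, 154 and 156 CPM. Its 4.61-fold rise (log2 2.21, SE 0.05) shared the smallest adjusted p of the experiment with MYC and PKIB (8.74e-28 with edgeR). RELB, its partner subunit, rose from 9.75, 8.5 and 8.42 CPM to 42.2, 44.7 and 46.9 CPM. TNFAIP2, a target gene of TNF signalling, rose by 1.88 and ICAM1, an adhesion receptor, by 1.83. TNF itself, the cytokine (chr6:31575565-31578336), was the 1 member that fell, from 113, 120 and 114 CPM to 29.5, 32.1 and 34.4 CPM, a 3.61-fold fall with no overlap.

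Promoters were searched for the kappa-B site, spelled GGG, any 2 bases, then TTTCC or TTCCC and read on both strands, in the 250 bases before the gene start given by RefSeq (GRCh38.p14). A match was found for 7 of 22 promoters of the NF-kB list (31.8%) and for 4.32% of the 9840 tested genes with a promoter. It was found for 5.56% of the 468 genes that rose at least 2-fold and for 3.24% of the 309 that fell as much. The list was chosen as NF-kB targets, so its share is no independent evidence. Stretches from a pair of inhibitors of NF-kB signalling are shown because each holds a match, in capitals, and because both genes rose. They were picked after their values were seen.
NFKBIA: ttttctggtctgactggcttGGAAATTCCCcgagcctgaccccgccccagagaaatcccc
TNFAIP3: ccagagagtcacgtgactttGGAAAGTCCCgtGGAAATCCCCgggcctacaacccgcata
The NFKBIA stretch lies at chr14:35404791-35404850 on the minus strand and the TNFAIP3 stretch at chr6:137867172-137867231 on the plus strand. NFKBIA, which encodes the inhibitor IkB-alpha, rose from 20.2, 19.4 and 20.4 CPM to 47.8, 48.9 and 48.7 CPM, and TNFAIP3, which encodes the ubiquitin-editing protein A20, from 132, 131 and 128 CPM to 202, 206 and 205 CPM. In all, 7 kinds of site were searched. The AP-1 site TGANTCA was found in 8.12% of 468 promoters of genes that rose at least 2-fold. Its share was 3.56% of 309 promoters of genes that fell as much and 3.87% of all. It was found in 0 of 28 promoters of the immediate early list and 3 of 22 of the NF-kB list. The CREB site TGACGTCA was found in 1 of 27 promoters of the cAMP and CREB list and in 3% of all. Its shares were 2.78% for rises of at least 2-fold and 2.27% for such falls. The FOXO site TGTTTAC was found in 2 of 20 promoters of the FOXO list. It was found in 193 of all 9840 promoters (2%). Its shares were 2.78% for rises of at least 2-fold (13 promoters) and 1.29% for such falls (4 promoters). A match is a string of letters and not a measured binding site.

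In the interferon response list 23 of 34 genes rose and 5 fell, with a median of 0.46. Besides CXCL10, the RNA sensor gene IFIH1 rose from 11.1, 11.8 and 10.6 CPM to 29.1, 29.8 and 28.6 CPM, the DNA sensor gene IFI16 by 0.91 and the signalling factor gene STAT2 by 0.85. The list summed to 1378 to 1413 CPM in DMSO and 1480 to 1500 CPM with RX-5902. HLA class I presentation was split, with 8 risen, such as HLA-B (0.43), and 6 fallen, such as the peptide transporter TAP2 (-0.69) and the proteasome subunit PSMB8 (-0.45).

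Among targets of FOXO factors and arrestin-related genes, 15 of 20 rose and 3 fell, with a median of 0.66. TXNIP, an inhibitor of thioredoxin and of glucose uptake (chr1:145992435-145996579), was at 173, 168 and 168 CPM in DMSO and at 504, 489 and 474 CPM with RX-5902. It rose 2.89-fold (log2 1.53, SE 0.04), with all treated libraries far above all control libraries. CCNG2, an atypical cyclin of cell cycle arrest, rose 4.83-fold and BCL6, a transcriptional repressor, 6.69-fold, while CITED2, a coregulator of transcription, fell by 0.84. In the lysosome and autophagy list 24 of 34 rose and 1 fell, with SQSTM1 (1.67), the membrane protein gene GABARAPL1 (1.58), the autophagy receptor OPTN (1.37) and TFEB, a regulator of lysosome genes (1.30).

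MYC RNA fell 4.06-fold. MYC stood at 646, 611 and 591 CPM in DMSO and at 145, 152 and 158 CPM with RX-5902. The lowest DMSO library was far above the highest RX-5902 library (log2 -2.02, SE 0.04, edgeR adjusted p = 8.74e-28). Its dimer partner MAX fell by 0.59, while MXD4 (0.97) and MXD1 (0.62), which compete with MYC for MAX, rose. All 39 listed MYC target genes fell, 18 of them by at least 2-fold, with a median of -0.96. SRM, the spermidine synthase (chr1:11054584-11060020), went from 174, 172 and 162 CPM to 49.5, 54.2 and 57.5 CPM. ODC1, the first enzyme of polyamine synthesis, went from 306, 293 and 290 CPM to 102, 104 and 100 CPM, and the nucleolar protein genes NOP16 and MYBBP1A fell by 1.87 and 1.47.

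The E-box CACGTG, the preferred binding site of MYC and MAX, was found in the 250-base promoters of 10 of 34 MYC target genes (29.4%), of 15.5% of the 309 genes that fell at least 2-fold, of 7.05% of the 468 that rose at least 2-fold and of 9.20% of all 9840. The list was chosen as MYC targets, so its share is no independent evidence. Ribosome assembly factors, most of which fell, had the E-box in 5 of 47 promoters (10.6%). Lists in which more genes rose than fell had it in 7 of 51 (13.7%, mitosis), 4 of 28 (14.3%, immediate early) and 4 of 27 (14.8%, cAMP and CREB). The NF-kB list had it in 1 of 22 and the FOXO list in 2 of 20. The stretches of SRM and LDHA show the match in capitals beside genes that fell, and were picked after their values were seen.
SRM: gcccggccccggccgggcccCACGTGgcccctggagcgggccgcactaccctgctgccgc
LDHA: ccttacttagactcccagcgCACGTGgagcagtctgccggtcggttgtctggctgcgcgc
They lie at chr1:11060178-11060237 on the minus strand and chr11:18394358-18394417 on the plus strand (GRCh38.p14). LDHA, the lactate dehydrogenase subunit, fell from 1396, 1326 and 1328 CPM to 744, 721 and 716 CPM (log2 -0.89, SE 0.04).

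Ribosome assembly factors fell in 50 of 53 cases and rose in 1, with a median of -0.78, and 14 of these genes are also in the MYC target list. Examples were RRP9 (-1.64), WDR3 (-1.40) and UTP20 (-1.29), which process the small subunit's RNA. UTP20 stood at 231, 231 and 244 CPM in DMSO and at 100, 95 and 93.2 CPM with RX-5902. POLR1G, a subunit of RNA polymerase I, fell by 2.05, but 49.8% of its exonic bases are shared with ERCC1 on the opposite strand. Host genes of small nucleolar RNAs had 13 fallen and 1 risen of 19, led by SNHG4 (-1.95) and SNHG15 (-1.42). In contrast to the assembly factors, the 79 cytosolic ribosomal protein genes had 11 risen, 8 fallen and 60 not called, a median of 0.01, and a sum of 91030 to 94050 CPM in DMSO against 92180 to 97560 CPM with RX-5902, ranges that overlap. Their count of rises was 5 with DESeq2, 0 in 1 fit of all 12 libraries, 6 without DMSO replicate 3, and 22 and 7 without RX-5902 replicate 1 or 3. Translation factors fell in 25 of 39 cases and rose in 6, among them the scaffold EIF4G1 (-0.70) and EIF5A (-0.73), and the translation repressor gene EIF4EBP1 fell by 1.23. The summed level of the list was nonetheless higher with RX-5902, at 58360 to 58680 CPM against 53880 to 56730 CPM.

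Nucleotide and one-carbon synthesis had 25 fallen and 1 risen of 27, with a median of -0.73. The nucleoside transporter gene SLC29A1 fell from 158, 152 and 141 CPM to 34.8, 37.6 and 39.4 CPM, a 4.03-fold fall and one of the 5 with the smallest p. The purine enzymes PFAS (-1.22) and PAICS (-0.96) and the serine enzyme PSAT1 (-1.44) fell. ATF4 targets, genes of amino acid supply, fell in 27 of 35 cases and rose in 4, with a median of -0.52. The amino acid transporter SLC7A5 fell from 574, 569 and 548 CPM to 176, 194 and 190 CPM, while PPP1R15A, which restores translation after stress, rose by 1.47. The lists of ATF4 targets and nucleotide synthesis share 5 genes.

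HPDL and UNG led the falls of protein-coding genes at the same minimum level. HPDL, a mitochondrial enzyme of coenzyme Q synthesis (chr1:45326895-45328710), went from 20.9, 22.1 and 18.9 CPM to 2.7, 3.83 and 3.78 CPM, a 5.99-fold fall (log2 -2.58, SE 0.11). UNG, a DNA repair glycosylase that removes uracil (chr12:109097597-109126725), fell 5.18-fold from 60.8, 59.0 and 57.0 CPM to 11.1, 11.8 and 11.3 CPM. BMP8B, a secreted signal of the TGF-beta family, fell from 85.5, 85.1 and 83.4 CPM to 17.7, 18.9 and 16.3 CPM. The groups of each gene lay far apart. PLD6, a lipase of the outer mitochondrial membrane, fell by 2.24, and NEXN, an actin-binding protein, by 2.18. NR1D1, a repressor of the circadian clock, fell by 2.10 and shares 473 exonic bases with THRA on the opposite strand. Among abundant genes the nucleotide receptor P2RY2 fell from 155, 152 and 150 CPM to 48.3, 46.3 and 48.9 CPM.

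Most mitosis genes rose, and most DNA replication genes fell by smaller amounts. Of 60 genes of G2 and mitosis 53 rose and 1 fell, with a median of 0.55, and their summed level went from 7455 to 7695 CPM in DMSO to 10620 to 11300 CPM with RX-5902. MKI67, a chromosome surface protein used as a proliferation marker (chr10:128096659-128126423), was at 1043, 1072 and 1078 CPM in DMSO and at 2123, 2006 and 1919 CPM with RX-5902. It rose 1.89-fold (log2 0.92, SE 0.04, edgeR adjusted p = 9.50e-20). The spindle pole gene ASPM rose by 0.95, the kinetochore gene NDC80 by 0.94 and the separase gene ESPL1 by 0.92. Kinesin and dynein motors, 6 of which are also in the mitosis list, had 24 risen and 4 fallen of 36. KIF18A, which shortens spindle microtubules, rose from 21.4, 22.3 and 25.9 CPM to 51.8, 48.1 and 45.5 CPM, KIF4A by 0.74 and KIFC3 by 1.12, while the dynein light chain DYNLL1 fell by 1.06.

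The cell cycle homology element (CHR), spelled TTTGAA, was found on either strand in the promoters of 27 of 51 mitosis genes (52.9%) and in 8.52% of all 9840 promoters, and the CCAAT box in 40 of 51 (78.4%) and in 35.5%. Both strings are known features of promoters that peak in G2 and mitosis, which is also how the list was chosen. Stretches of 60 bases from MKI67 and KIF18A, among the mitosis genes and motors that rose, show the element in capitals. They were picked after their values were seen.
MKI67: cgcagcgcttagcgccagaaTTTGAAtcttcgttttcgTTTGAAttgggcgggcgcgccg
KIF18A: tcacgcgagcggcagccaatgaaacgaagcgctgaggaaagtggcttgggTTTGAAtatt
They lie on the minus strand at chr10:128126431-128126490 and chr11:28108157-28108216 (GRCh38.p14).

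Of 59 genes of G1/S and DNA replication 39 fell, 7 rose and 13 were not called, with a median of -0.21. When tested against a fold of 1.2, 21 fell and 4 rose. Besides UNG, the helicase subunit MCM2 fell from 224, 223 and 203 CPM to 119, 126 and 125 CPM, the phosphatase CDC25A by 0.78 and the replication licensing regulator DTL by 0.78. Among cyclins, kinases and inhibitors 16 of 30 rose and 6 fell, and those with the smallest p were CDKN1A (1.17), CCNG2 (2.27), CCNI (0.66) and CDKN2C (0.72). CDKN1A, the cell cycle inhibitor p21 (chr6:36676460-36687337), rose 2.25-fold from 194, 203 and 189 CPM to 419, 438 and 461 CPM. CCND1, which encodes cyclin D1, was at 29.3, 29.5 and 33.0 CPM against 29.8, 32.6 and 32.5 CPM, groups that overlap (log2 0.05, 95% interval -0.08 to 0.17, edgeR adjusted p = 0.533). CCND1 shares 497 exonic bases with LTO1 on the opposite strand. Beta-catenin's gene CTNNB1 rose by 0.22 (SE 0.04), and the Wnt list had 9 risen and 9 fallen of 24, in which the Wnt feedback genes ZNRF3 (-1.60) and NKD2 (-1.23) fell.

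**Figure D4:**
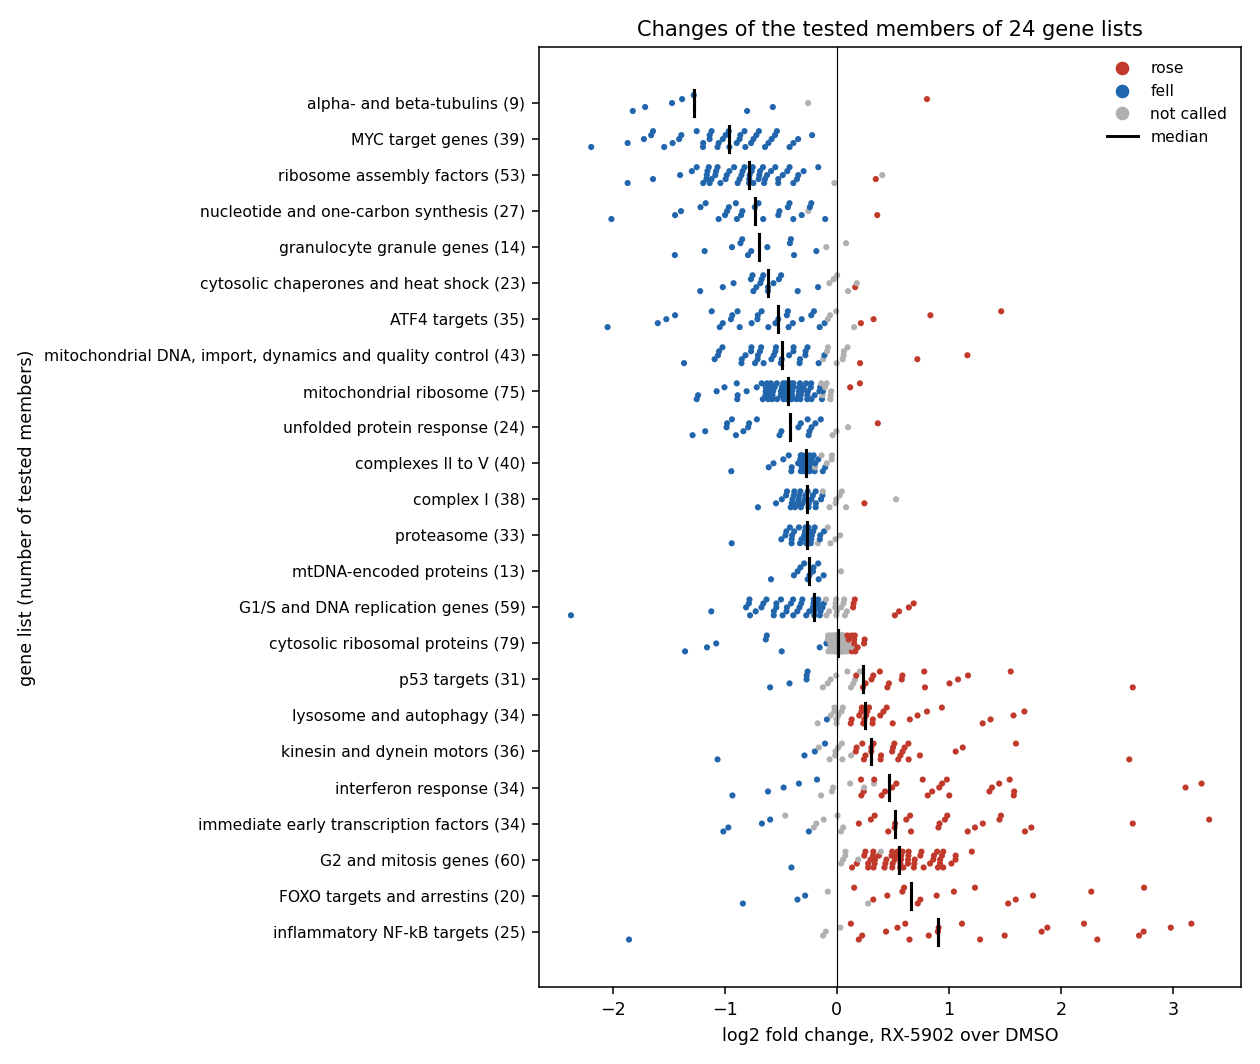
Log2 fold changes of RX-5902 over DMSO for the tested members of 24 gene lists, 1 point per gene (red rose, blue fell, grey not called), with the list median as a black line and the number of tested members in parentheses. MYC targets, ribosome assembly and nucleotide synthesis lie left of 0, cytosolic ribosomal proteins at 0.01, and mitosis genes and NF-kB targets to the right at medians of 0.55 and 0.90.

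Most nuclear genes of mitochondria fell by small amounts. The mitochondrial ribosome had 66 of 75 fallen and 2 risen (median -0.43), complex I 29 of 38 and 1 (median -0.27), complexes II to V 35 of 40 and 0 (median -0.27) and the TCA cycle 19 of 23 and 0 (median -0.26). Genes of mitochondrial DNA upkeep, import and quality control had 32 of 43 fallen and 3 risen, with a median of -0.49. TWNK, the helicase of mitochondrial DNA, went from 157, 160 and 156 CPM to 59.3, 56.5 and 68.2 CPM, the import channel gene TOMM40 fell by 1.09 and MRPL24, of the large mitochondrial subunit, by 1.24. The 13 mRNAs encoded by mitochondrial DNA had 12 fallen and 0 risen, with a median of -0.24. Their sum was 55290 to 58570 CPM in DMSO and 44200 to 52380 CPM with RX-5902, where replicate 2 was the lowest. MT-CO1, a subunit of complex IV, was at 14100, 13520 and 13520 CPM against 11640, 10850 and 11850 CPM (log2 -0.26, SE 0.04). In 1 fit of all 12 libraries the edgeR adjusted p was 0.157 for the log2 fold change of MT-CO1, 0.224 for the log2 fold change of MT-ATP6 and 0.106 for the log2 fold change of MT-ATP8, so these were no longer called. In that fit the falls numbered 10 in complex I, 9 in complexes II to V, 12 in the TCA cycle and 1 among the mRNAs of mitochondrial DNA.

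Protein folding genes fell in the cytosol and in the endoplasmic reticulum. Cytosolic chaperones had 17 of 23 fallen and 1 risen (median -0.61), and HSPA8, the constitutive HSP70, went from 4120, 4125 and 3942 CPM to 2464, 2334 and 2438 CPM. The co-chaperone genes FKBP4 and AHSA1 fell by 0.92 and 0.77. In the unfolded protein response 20 of 24 fell and 1 rose (median -0.42), with XBP1, its transcription factor, at 384, 385 and 384 CPM in DMSO and 159, 154 and 160 CPM with RX-5902. The chaperones CALR and HSPA5 were 1.97-fold and 1.91-fold lower. Proteasome genes fell in 28 of 33 cases and rose in 0, by a median of -0.27, with the assembly factor PSMG1 at -0.94, and 14 fell in 1 fit of all 12 libraries. Glycolysis and hypoxia genes had 17 fallen and 9 risen of 33, and hexokinase HK2 fell by 1.36.

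The genes of the BCL2 family moved in both directions. BCL2, the survival gene and target of venetoclax, was at 135, 139 and 140 CPM in DMSO and 74.2, 66.6 and 71.5 CPM with RX-5902, a 1.95-fold fall (log2 -0.96, SE 0.04, edgeR adjusted p = 4.22e-19). MCL1, another survival gene, rose by 0.20 (SE 0.04), from 406, 390 and 400 CPM to 464, 461 and 451 CPM. BCL2L1, which encodes BCL-XL, had groups that overlap (log2 0.25, edgeR adjusted p = 0.0121). The adjusted p of the log2 fold change of BCL2L1 was 0.0995 and 0.0844 without DMSO replicate 2 or 3, 0.0623 and 0.0538 without RX-5902 replicate 1 or 3, and 0.100 with DESeq2. BCL2A1 rose by 0.74 and BCL2L2 by 0.34. Of 14 pro-apoptotic members 5 rose and 3 fell: besides BMF, BNIP3L, a receptor of mitophagy, rose by 0.83, while BCL2L11, which encodes BIM, fell by 0.79 and BID by 0.61. BCL2L11 shares 727 exonic bases with MIR4435-2HG on the opposite strand, which had 2793 counts against its 4700. Targets of p53 had 17 risen and 5 fallen of 31, led by BTG2 and CDKN1A, with DDB2 (0.78), a DNA damage sensor, and PHLDA3 (1.08), an inhibitor of AKT. In the death receptor pathway 12 of 22 rose and 4 fell, among them CASP10 (0.76) and the receptor TNFRSF10B (0.45) risen and the receptor TNFRSF1B (-0.64) fallen.

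Myeloid genes changed without one direction. Of the 16 identity markers of the line 14 were tested, and 7 rose and 6 fell. Of the remaining markers CSF2RA, a subunit of the GM-CSF receptor, had 0 counts and CD68, a lysosomal protein of macrophages, at most 1 count. The treatment of multi-mapping reads is not given, so these counts do not by themselves show absent RNA. CD45's gene PTPRC rose by 0.92 and ITGAM, an integrin of mature myeloid cells, by 1.26, while LYZ, lysozyme, fell by 0.54. Granule genes had 12 of 14 fallen and 0 risen (median -0.69): PRTN3, proteinase 3, went from 768, 818 and 760 CPM to 274, 287 and 300 CPM, and neutrophil elastase ELANE fell by 0.93. Monocyte and macrophage genes had 12 risen and 9 fallen of 25, with the integrin ITGAX (1.82) and the costimulatory receptor CD86 (1.65) risen and VCAN, a matrix proteoglycan, fallen by 0.79. Among myeloid transcription factors 8 rose and 10 fell of 22. IRF8, a factor of monocyte fate, fell from 537, 544 and 541 CPM to 209, 226 and 218 CPM, MYB, a factor of progenitors, fell by 0.77, and ZEB2 rose by 0.44.

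Markers of other cell types were low in most lists. Those of T and NK cells and of fibroblasts and endothelium had the highest sums. The 20 T and NK cell markers summed to 58.6 to 60.3 CPM in DMSO and 124 to 129 CPM with RX-5902, 8 of them had no counts, and 4 were tested. TRAC (1.28), IL7R (1.18), NKG7 (0.61) and PRF1 (0.88) rose, and PRF1, with at most 0.728 CPM, was not called in 10 of the 12 other settings. CD3D and CD3E, which define T cells, had 0 counts in all 6 libraries. B cell markers summed to at most 2.99 CPM, mast cell and eosinophil markers to at most 3.25 CPM, megakaryocyte markers to at most 4.16 CPM, epithelial markers to at most 18.3 CPM and erythroid markers to at most 34.9 CPM in any library. Fibroblast and endothelial markers summed to 137 to 140 CPM and 129 to 136 CPM. The part of these markers in the immune gene lists that rose was not tested.

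DDX5 RNA did not fall with the compound. DDX5 (chr17:64498254-64508199) was at 854, 868 and 863 CPM in DMSO and at 1108, 1067 and 1023 CPM with RX-5902. All treated libraries lay above the controls, and the rise was 1.24-fold (log2 0.31, 95% interval 0.23 to 0.38, edgeR adjusted p = 1.47e-08, and 0.104 when tested against a fold of 1.2). RNA levels do not read the protein or its phosphorylation. DDX17, the closest paralog, rose by 0.15 (SE 0.04). Of 37 DEAD-box helicases, the family of DDX5, 26 fell and 6 rose, with a median of -0.30, and the nucleolar members DDX31 (-1.12), DDX18 (-0.73), DDX21 (-0.71) and DDX55 (-0.68) had the smallest p among those that fell. Spliceosome, SR protein and hnRNP genes had 34 fallen and 6 risen of 51 (median -0.21), with SRSF7 (-0.75) and SRSF2 (-0.63). In factors of R-loops and RNA decay 15 of 30 fell and 4 rose, among them the exosome subunits EXOSC5 (-1.23), EXOSC2 (-0.86) and EXOSC4 (-0.82) and RNASEH1 (-0.80), which cuts RNA in RNA-DNA hybrids.

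The compound's changes were set beside those of shDDX5 over shControl, which differ in the means of targeting DDX5, in time and in lentiviral infection. With the knockdown 28.4% of 14463 tested genes rose and 28.3% fell (56.7% called). Of the 592 genes that rose at least 2-fold with RX-5902 and were tested in both, 40.9% rose and 21.6% fell with the knockdown, and of the 455 that fell at least 2-fold, 15.6% rose and 46.6% fell. Over all 13233 genes tested in both, the shares were 26.8% and 30.2%. Seen from the other side, 41.1% of 1084 genes that rose at least 2-fold with the knockdown rose with the compound and 19.0% fell. Of 1412 that fell as much with the knockdown, 31.9% rose and 37.6% fell with the compound. Beside these, 4302 of the 13233 genes rose and 4379 fell with the compound. Over its 13941 tested genes the shares were 32.2% and 31.9%. Replicate 1 of shDDX5 stood apart from its group. Without it the shares that rose and fell with the knockdown were 48.5% and 25.8% for the compound's 2-fold rises. They were 20% and 53.4% for its 2-fold falls, and 34.8% and 38.7% over all genes.

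Single genes show both patterns. JUN was at 3.32 with the compound and 2.68 with the knockdown, MYC at -2.02 and -1.12, CDKN1A at 1.17 and 1.42, BCL2 at -0.96 and -0.87, and SQSTM1 at 1.67 and 1.13, each called in both. DDX5 itself (0.31 and -2.19), CCND1 (0.05, not called, and -2.40), CREB5 (5.08 and -1.77), MKI67 (0.92 and -2.41) and PRTN3 (-1.45 and 2.28) went apart. As a list, the 60 mitosis genes had 53 risen and 1 fallen with the compound and 1 risen and 57 fallen with the knockdown (medians 0.55 and -1.86). Granule genes had 0 risen and 12 fallen of 14 and 13 risen and 1 fallen of 15, and the unfolded protein response 1 risen and 20 fallen and 15 risen and 5 fallen of 24. The same 39 MYC targets had 39 fallen with the compound and 28 fallen and 2 risen with the knockdown. Lists were not tested against each other. In the test of the difference across all 12 libraries, 8108 of 15386 genes (52.7%) differed between the experiments.

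**Figure D5:**
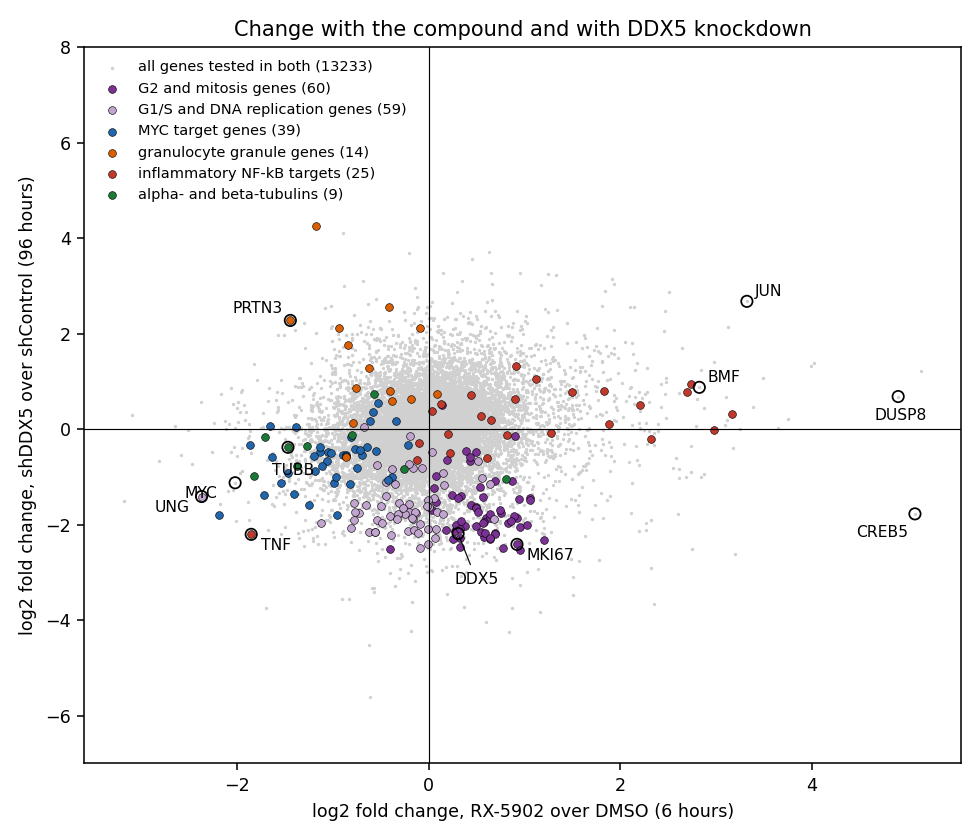
Log2 fold change with RX-5902 at 6 hours (horizontal) against that with shDDX5 at 96 hours (vertical) for 13233 genes tested in both (grey), with 6 gene lists in colour and ringed genes named. Mitosis genes lie at the lower right (medians 0.55 and -1.86), MYC targets at the left (medians -0.96 and -0.55), and DDX5 at 0.31 and -2.19.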

How the data were processed

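Per the labels' protocols, Trizol and column extraction included DNase digestion, and sequencing libraries came from an MGIEasy Fast RNA set. The deposited values were read counts per gene, not normalized, for 61906 genes. The build was GRCh38.p13, and the tools were STAR 2.7.9a, Trim Galore 0.6.7, featureCounts of Subread 2.0.3, Picard 2.8.0, DESeq2 1.46.0 and R 4.4.2, per the submitters' processing notes. The strand setting, annotation release, RNA selection and treatment of multi-mapping reads are not given in the sources used here. Of the 264 named genes 132 share exonic bases with another gene, and for 33 of them the partner's counts exceed 10% of their own.

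The 6 libraries were fitted alone with edgeR 4.0.16 in R 4.3.3, with its default expression filter, TMM scaling and the two-sided quasi-likelihood F test, adjusted by Benjamini-Hochberg over all 13941 tested genes. Intervals are 95%. Chi-square per gene between replicates of a group was 1.76 to 3.80, so no pair was within sampling noise. CPM values of genes are compared between groups and not between genes. The script was tested on simulated counts of 13478 genes. It recovered 68.1% of genes changed by 1.25-fold, 90% at 1.5-fold, 93.9% at 2-fold and 100% at 4-fold, with 18 false calls. Few genes were changed in that simulation, against 64.1% called here, so it does not check the scaling or error rate where most genes move. Alternatives were RLE scaling, DESeq2 1.42.0, filters, a replicate block, 1 fit of all 12 libraries, a test against a fold of 1.2 and leaving out each library.

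Named genes were 14 genes of DDX5, tubulin, MYC, Wnt and apoptosis biology; the 8 largest rises and 8 largest falls of protein-coding genes (mean of at least 5 CPM, no overlap of groups); the 5 in each direction at a mean of at least 100 CPM; the 5 in each direction with the smallest p; for each of 69 lists the 4 called members of smallest p; all tested tubulins; and, under the limits of the 8, the 3 non-coding genes with the largest change in each direction. TTC5, TUBG1, TUBE1, TUBD1, NFKBIA, TNFAIP3, CSF2RA, CD68, CD3D, CD3E and overlapping partner genes fall outside the rule and were chosen after their values were seen. The comparison, lists and tests were chosen with earlier results of these data known. Coding starts came from GENCODE release 29 and promoters from RefSeq, matched by symbol.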

Additional observations from a re-analysis of the deposited data

Results flagged for a closer look

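For 16 protein-coding genes, the 8 largest rises and 8 largest falls where the mean level reached 5 CPM and the groups do not overlap, and for DDX5, the change with RX-5902 minus the change with shDDX5 was tested across all 12 libraries with edgeR. The difference was called for each of these 17, but 16 were chosen for their change with the compound, which is part of the difference, and DDX5 is the target of the shRNA, so the calls are a description. Over all genes 52.7% were called in this test, and the experiments also differ in treatment and time. The difference, on the log2 scale, was 6.87 for CREB5, 4.24 for DUSP8, 3.65 for LZTS3, 2.95 for CXCL10, 2.73 for IL4I1, 2.45 for PKIB and 1.97 for BMF. For JUN, which rose in both, it was 0.66 (adjusted p = 0.00857 with edgeR). Among genes that fell with the compound it was -2.35 for PLD6, -2.02 for HPDL, -1.76 for BMP8B, -0.95 for UNG, -0.88 for MYC, -0.80 for NR1D1, -0.76 for POLR1G and -0.60 for NEXN (adjusted p = 0.0428 with edgeR). For DDX5, which fell with its shRNA, the difference was 2.51. Under the other settings and without single libraries 264 recomputed differences kept direction and call, and 8 lost the call, all of them for NEXN.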

How the results depend on the processing

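Against 4492 rises and 4451 falls, RLE scaling gave 4425 and 4515, DESeq2 3635 and 3943, no expression filter 4467 and 4607, a filter of 1 CPM in 3 libraries 4302 and 4203, and 1 fit of all 12 libraries 3767 and 3049. The test against a fold of 1.2 gave 2573 and 2617. Without 1 library the counts were 4103 to 4371 and 4205 to 4432. With the replicate number as a block 4376 rose and 4320 fell. The labels do not say whether the numbers pair the libraries. Deviations of same-numbered libraries correlated at -0.24, 0.07 and -0.34, and 3 libraries per group cannot settle this. No named gene changed direction: 3390 recomputed values kept the call and 40 lost it, of which 10 belonged to PRF1, 8 to TUBB1 and 6 to BCL2L1. Of 845 recomputed list medians 158 moved by more than their spread and 13 changed sign, in the lists of YAP targets (0.15, and -0.31 with DESeq2), Wnt genes, ribosomal proteins and identity markers. Of as many counts of rises 72 and of falls 63 moved by over 1.5 times, 32 and 30 of them under the test against a fold of 1.2. Genes under 1 CPM had a median standard error of 0.33, against 0.04 at 100 CPM and above, so small changes of rare genes were not detectable.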

Other observations

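Circadian clock genes were split, with 7 risen and 8 fallen of 17. Besides NR1D1, its relative NR1D2 fell from 25.9, 23.6 and 24.2 CPM to 11.8, 12.4 and 10.8 CPM, the clock output factor TEF by 1.98 and the core repressor gene PER2 by 0.77. Genes of NRF2, iron and heme had 12 risen and 6 fallen of 26. The ferritin heavy chain FTH1 rose 2.69-fold, from 92.2, 107 and 99.2 CPM to 273, 257 and 272 CPM, and the light chain FTL by 0.65, while the transferrin receptor TFRC, which takes iron up, fell by 0.69. Of 13 genes of fatty acid synthesis 8 fell and 3 rose, with FASN at -0.72 and SCD at -0.68.

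In the list of KMT2A fusion and stemness genes 18 of 23 rose and 1 fell (median 0.28), such as JMJD1C (0.78) and ZNF521 (0.48); with shDDX5 3 rose and 13 fell of 19. Chromatin regulators had 27 risen and 12 fallen of 46, with the DNA methyltransferase DNMT3A at 17.3, 16.7 and 18.8 CPM in DMSO and 40.5, 42.8 and 44.7 CPM with RX-5902 and the acetyltransferases CREBBP (0.64) and EP300 (0.57). Replication-dependent histones had 9 of 32 genes tested, of which 7 rose (11 with no expression filter). The list summed to 10.7 to 12.2 CPM in DMSO and 26.0 to 27.3 CPM with RX-5902. Its members were rare, and some could pass the filter through the treated group alone. H4C8 had 4, 4 and 6 counts in DMSO and 18, 20 and 19 with RX-5902, so the count of rises is only a description. In the list of FLT3, STAT5 and PIM genes 8 of 16 rose, 3 fell and 5 were not called (median 0.12), and the feedback genes SOCS2 (0.67) and SOCS3 (1.41) and the kinase PIM1 (0.66) rose. Among non-coding genes whose mean level reached 5 CPM and whose groups do not overlap, the largest rises were those of ENSG00000217801 (2.46), FMNL1-DT (1.76) and BAIAP2-DT (1.62), and the largest falls those of SNHG4 (-1.95), TMCC1-DT (-1.79) and CCDC26 (-1.62). FMNL1-DT shares 541 exonic bases with FMNL1 on the opposite strand, which had more counts.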
